A study of Homo sapiens and Mus musculus with 24 samples.

Results

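The 249 protein-coding genes of chromosome 19 whose symbol starts with ZNF and a digit were followed in Caco-2 cells, a human colon carcinoma line used as a model of the intestinal epithelium, with and without the DNA methyltransferase DNMT3A. They were chosen by symbol and chromosome alone, from 58051 gene IDs in the count tables and from 1459 protein-coding genes on chromosome 19. Total RNA was sequenced from 15 libraries in 4 groups. WT was the unedited line (n = 4), and ΔDNMT3A was a clone in which DNMT3A had been disrupted with CRISPR-Cas9 (n = 4). DNMT3A1 (n = 3; replicate 3 was not analysed here) and DNMT3A2 (n = 4) were clones derived from ΔDNMT3A that each received the named isoform, with a TY1 tag, from a piggyBac vector with a CMV promoter and puromycin selection, so both carry the deletion as well. Each edited line was 1 clone, and clone and genotype cannot be told apart. The labels do not say whether libraries of a group came from separate cultures, so p-values measure only the spread between these libraries.

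Most of these genes encode C2H2 zinc finger proteins, in which each finger holds a zinc ion between a pair of cysteines and a pair of histidines and contacts a few bases of DNA. Many carry a KRAB domain before the fingers, which binds TRIM28 (KAP1) and through it the histone methyltransferase SETDB1, and these proteins are known for silencing retrotransposons and for keeping DNA methylation at imprinted genes. The family grew by tandem duplication, so its members lie in clusters, many of them on chromosome 19. DNMT3A places new methyl groups on cytosines of CpG dinucleotides, and its shorter isoform DNMT3A2 starts from an internal promoter.

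Library depth lay between 22104408 and 42161299 counted fragments. DNMT3A itself was measured first as a check of the labels. The 4 WT libraries gave 63.6, 61.95, 67.1 and 65.7 CPM (counts scaled to a library of 1000000), against 22.3, 20.7, 20.6 and 19.3 in ΔDNMT3A, 36.6, 39.03 and 38.3 in DNMT3A1, and 20.1, 22.3, 23.5 and 21.7 in DNMT3A2. The DNMT3A2 libraries did not stand above ΔDNMT3A (log2 difference 0.07, SE 0.06, adjusted p = 0.27, edgeR quasi-likelihood test), and these are called the libraries labelled DNMT3A2. The study checked the isoforms at the protein level by immunoblot, which is not part of these files, and how far the gene counts capture the introduced isoform was not tested. Of 10 epithelial markers, 9 passed the filter on low counts and CDX1, a defining intestinal factor, was at or near 0 in every group. Their summed level was 8882 to 9154 CPM in the libraries labelled DNMT3A2 and 12590 to 13270 in ΔDNMT3A, with WT and DNMT3A1 between. KRT8 and KRT18 made up most of this sum, with means of 3633 and 3197 CPM in WT and 4706 and 4347 in ΔDNMT3A. Of the 9 tested in ΔDNMT3A against WT, 4 were higher and 2 lower, beside 31.2% and 31% over all genes tested. CDX2 (100.6 CPM in WT, log2 fold change -0.15) and HNF4A (-0.18) were the lower ones. The 9 markers of leukocytes, fibroblasts and endothelium summed to 30.4 to 57.5 CPM over all libraries. The fibroblast markers COL1A1 and PDGFRB averaged 26.7 and 18.96 CPM in WT and 15.97 and 9.39 in ΔDNMT3A. The endothelial marker PECAM1 averaged 7.44 and 8.08. Of 5 markers tested in ΔDNMT3A against WT, 2 were higher and 2 lower. The lower ones were COL1A1 (log2 fold change -0.75) and PDGFRB (-1.03). The higher ones were ITGAM, given below, and VWF, also an endothelial marker (log2 fold change 1.38, at means of 0.373 CPM in WT and 0.957 in ΔDNMT3A). The leukocyte marker PTPRC was at 0 in WT, ΔDNMT3A and the libraries labelled DNMT3A2. ITGAM, an integrin of myeloid cells, was counted in every group, at means of 0.666 CPM in the WT libraries, 1.41 in ΔDNMT3A, 0.693 in DNMT3A1 and 0.369 in the libraries labelled DNMT3A2, and was higher in ΔDNMT3A than in WT (log2 fold change 1.059, adjusted p = 2.97e-05). The part of these shifts in the changes below was not tested, and in bulk RNA fewer cells of a type and less RNA per cell cannot be told apart.

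The members fell into 9 clusters holding 238 of them, with 11 scattered in between, where a gap of more than 1000000 bases between starts ended a cluster and 5 members made one (GRCh38). In order they are cluster 1 (chr19:2819874-2944971, 5 members), cluster 2 (chr19:7069444-9793180, 16), cluster 3 (chr19:11483427-12640098, 26), cluster 4 (chr19:19668796-24129961, 37), cluster 5 (chr19:34677639-34964049, 5), cluster 6 (chr19:36182060-37817300, 26), cluster 7 (chr19:43525497-45076588, 24), cluster 8 (chr19:51571298-53580269, 40) and cluster 9 (chr19:55476332-58481230, 59). In cluster 4, 34 of 37 members had a KRAB-like stretch before the first finger, beside 185 of the 248 members whose coding sequence was read. The members had a median of 12 fingers, from 0 to 36. Cluster 4 had a median of 10 CG dinucleotides in the RefSeq promoter windows (250 bases before to 50 after a start), against 20 over the 218 members with a window and 14 over all 35116 windows.

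In WT the median member stood at 1.53 RPKM (CPM divided by the exon length in kilobases), close to the 1.57 of all protein-coding genes, and 151 of 249 reached 1 RPKM. The highest were ZNF146, ZNF121 and ZNF302. ZNF146, a short protein of fingers without a KRAB domain, stood at 35.9 RPKM ± 1.73 (SD, n = 4) in the WT libraries, 42.2 ± 0.993 in ΔDNMT3A, 41.1 ± 0.159 in DNMT3A1 and 63.8 ± 0.91 in the libraries labelled DNMT3A2. ZNF121 stood at 16.6 ± 0.276, 18.2 ± 0.494, 15.4 ± 0.508 and 22.1 ± 0.541 RPKM in the same order. For both genes the libraries labelled DNMT3A2 were the highest, with no overlap with any other group.

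At the other end, 37 members had at most 3 counts in every one of the 15 libraries and are called silent here, and 9 more were too low to be tested in any comparison. Cluster 4 held 14 of the silent members. Of these, 11 lay side by side from ZNF43 to ZNF730 (chr19:21804949-23147219), with no library above 3 counts, while ZNF100 before them (19.5 CPM in WT) and ZNF724, ZNF91 and ZNF675 after them were expressed. Shorter silent stretches were ZNF829 and ZNF568, and ZNF569 to ZNF793, in cluster 6, ZNF667 and ZNF471, and ZNF154 and ZNF671, in cluster 9, and ZNF625-ZNF20 and ZNF625 in cluster 3, which share most of their exon length with other genes, where reads were not counted. By the definition of silent used here, none of these stretches came above 3 counts in any library of the 4 lines, so this is not a separate result.

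**Figure D1:**
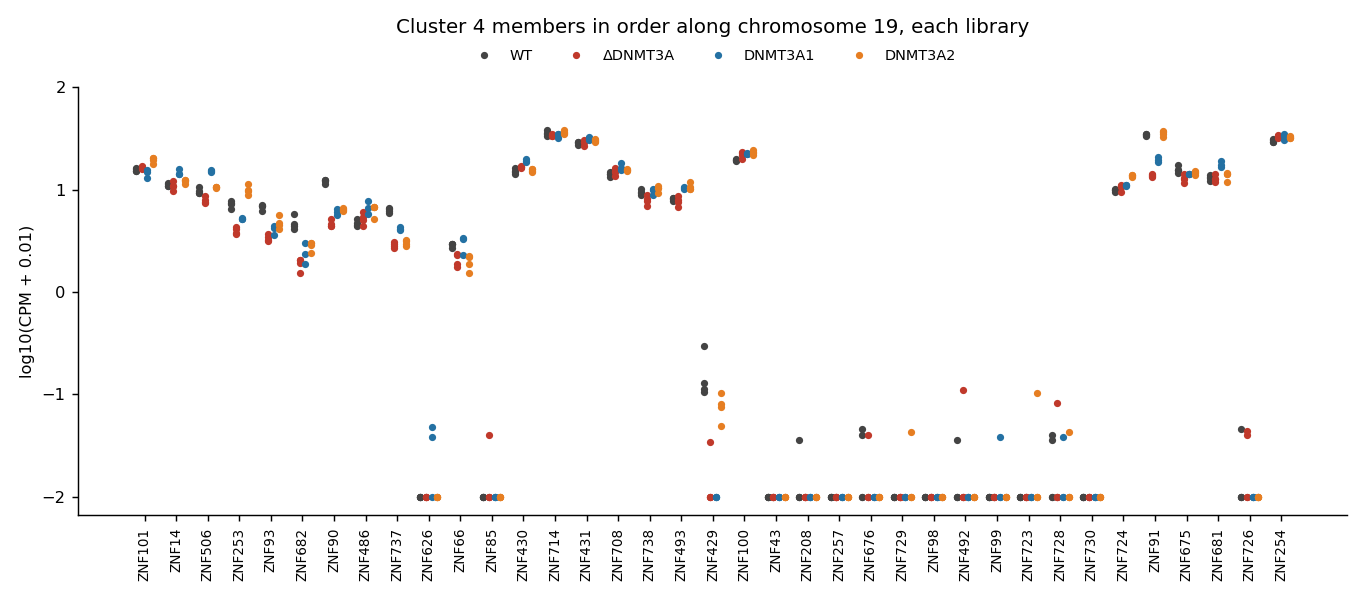
The 37 members of cluster 4 in their order along chromosome 19 (x axis) and their level in each of the 15 libraries (y axis, log10 of CPM plus a small constant, so that a count of 0 sits on the lowest line), coloured by group. The 11 members from ZNF43 to ZNF730 sit at or near that line between expressed neighbours, and ZNF253, ZNF93, ZNF682, ZNF90, ZNF737 and ZNF91 are lower in ΔDNMT3A than in WT.

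The first comparison asked what changed with the loss of DNMT3A. Of 201 members tested, 55 were higher and 44 lower in ΔDNMT3A than in WT at an adjusted p under 0.05, and the median log2 fold change was 0.02. Over all 16654 genes tested, 31.2% were higher and 31% lower, beside 27.4% and 21.9% of the members. Most changes were small, and 2 members rose and 5 fell by a log2 fold change of 1 or more. The directions were not spread evenly over the clusters. Cluster 4 had 2 higher and 10 lower of 22 tested, cluster 6 had 11 higher and 3 lower of 20, and cluster 8 had 20 higher and 3 lower of 33. Cluster 3 had 3 higher and 8 lower of 23, cluster 9 had 13 higher and 9 lower of 49, and cluster 7 had 4 and 3 of 22. Of the remaining clusters, cluster 1 had 0 higher and 1 lower of 5, cluster 2 had 1 and 2 of 13 and cluster 5 had 1 and 1 of 5, and the scattered members had 0 higher and 4 lower of 9.

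**Figure D2:**
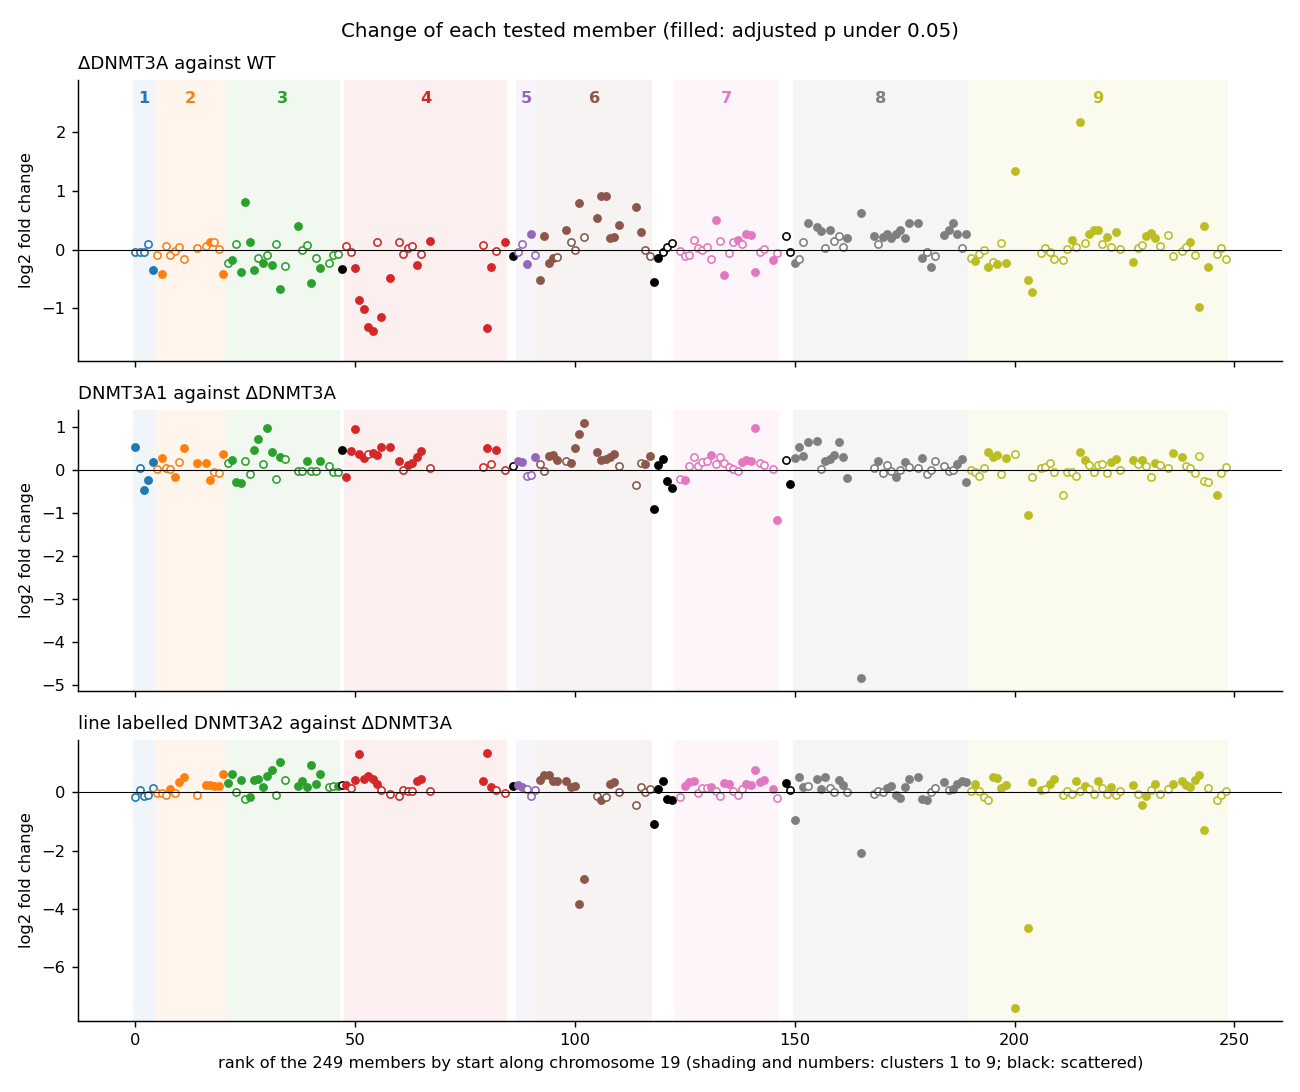
The log2 fold change (y axes, one scale per panel) of each tested member by its rank along chromosome 19 (x axis) in ΔDNMT3A against WT, DNMT3A1 against ΔDNMT3A and the line labelled DNMT3A2 against ΔDNMT3A, coloured by cluster and filled where the adjusted p was under 0.05. Cluster 4 holds the deepest falls and cluster 6 and cluster 8 mostly rises in the first panel. The lowest point of the second panel is ZNF528, with 2 counts over the DNMT3A1 libraries, and that of the last panel, ZNF583, is a fitted value for a gene with 0 counts in the libraries labelled DNMT3A2.

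The fall in cluster 4 was carried by a few genes. ZNF91, a KRAB zinc finger gene known for repressing SVA and L1 retrotransposons, gave 34.4, 33.8, 35.3 and 34.7 CPM in the WT libraries, 13.5, 14.1, 13.2 and 14.1 in ΔDNMT3A, 20.7, 18.6 and 19.4 in DNMT3A1, and 34.9, 32.4, 37.7 and 36.6 in the libraries labelled DNMT3A2. ΔDNMT3A was below every WT library, DNMT3A1 lay between, and the libraries labelled DNMT3A2 overlapped WT. The log2 fold change was -1.34 (SE 0.05, adjusted p = 1.57e-17) against WT in ΔDNMT3A and -0.82 (SE 0.05, adjusted p = 2.56e-13) in DNMT3A1. In the libraries labelled DNMT3A2 it was 0.02 (SE 0.04, adjusted p = 0.63).

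ZNF90, also in cluster 4 but not next to ZNF91, gave 12.4, 11.2, 12.2 and 12.3 CPM in the WT libraries, 4.39, 4.56, 5.17 and 4.42 in ΔDNMT3A, 5.58, 6.08 and 6.47 in DNMT3A1, and 6.40, 6.32, 6.65 and 6.19 in the libraries labelled DNMT3A2. All 3 edited lines were below WT without overlap, and ΔDNMT3A was the lowest (log2 fold change -1.39, SE 0.07, adjusted p = 6.30e-14). ZNF93, known for repressing L1 elements, fell by 1.01 on the log2 scale in ΔDNMT3A (SE 0.09, adjusted p = 5.24e-10), from 6.79 CPM ± 0.442 to 3.38 ± 0.252 (SD, n = 4 each). ZNF682 fell by 1.33 (SE 0.12) and ZNF737 by 1.15 (SE 0.09), and their DNMT3A1 and DNMT3A2-labelled libraries also stayed below WT. ZNF253 fell by 0.86 (SE 0.09) but stood above WT in the libraries labelled DNMT3A2 (log2 fold change 0.45, SE 0.08, adjusted p = 9.77e-06). From ZNF506 to ZNF90 (chr19:19785839-20127076) 5 tested members in a row were lower in ΔDNMT3A.

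The promoters of cluster 4 are shown because genes with related upstream sequences stood at very different levels. Each line gives the 250 bases before the first start that RefSeq lists (GRCh38.p14), 5′ to 3′ on the gene's strand, with CG dinucleotides in capitals. ZNF91 lies on the minus strand (chr19:23395472-23395721), ZNF90 (chr19:20077750-20077999) and ZNF431 (chr19:21141790-21142039) on the plus strand, and ZNF208 (chr19:22010944-22011193) on the minus strand.
ZNF91: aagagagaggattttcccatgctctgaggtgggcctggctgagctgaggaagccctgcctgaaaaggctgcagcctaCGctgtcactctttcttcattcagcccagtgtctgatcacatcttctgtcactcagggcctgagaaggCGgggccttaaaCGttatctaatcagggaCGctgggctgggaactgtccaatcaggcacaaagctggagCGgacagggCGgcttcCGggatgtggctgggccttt
ZNF90: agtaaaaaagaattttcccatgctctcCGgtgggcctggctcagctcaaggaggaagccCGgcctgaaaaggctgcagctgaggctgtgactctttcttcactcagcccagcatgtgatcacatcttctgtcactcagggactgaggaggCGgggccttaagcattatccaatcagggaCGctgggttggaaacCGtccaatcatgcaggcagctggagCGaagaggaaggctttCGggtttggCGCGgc
ZNF431: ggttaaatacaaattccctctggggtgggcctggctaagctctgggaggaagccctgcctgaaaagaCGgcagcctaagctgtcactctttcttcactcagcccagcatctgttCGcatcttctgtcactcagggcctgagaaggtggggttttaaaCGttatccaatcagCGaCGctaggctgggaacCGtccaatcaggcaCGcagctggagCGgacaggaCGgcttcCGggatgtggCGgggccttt
ZNF208: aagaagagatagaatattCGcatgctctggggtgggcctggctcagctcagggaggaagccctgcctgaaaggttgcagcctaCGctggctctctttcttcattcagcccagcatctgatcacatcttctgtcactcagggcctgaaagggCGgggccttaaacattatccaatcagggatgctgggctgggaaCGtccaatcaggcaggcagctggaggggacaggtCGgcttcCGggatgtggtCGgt
Against ZNF91 these 250 bases were 86.0% identical in ZNF208, 84.4% in ZNF431 and 81.2% in ZNF90 by end-to-end alignment. ZNF208 was silent in all 4 lines, although more than 10% of its exonic 75-base stretches recur elsewhere on chromosome 19, from which reads were not counted. ZNF431 stood at 28.5 CPM ± 1.01 in WT and 29.1 ± 1.63 in ΔDNMT3A (SD, n = 4 each; log2 fold change 0.02, SE 0.05, adjusted p = 0.73), while ZNF91 and ZNF90 fell. Of 28 other cluster 4 members with a window, 22 were at least 75.6% identical to ZNF91, whereas the highest of 189 members outside cluster 4 was 58.8%. Among these 23 genes with ZNF91 included, 9 were silent, and of the 14 tested 5 were lower in ΔDNMT3A (ZNF91, ZNF90, ZNF93, ZNF737 and ZNF66), 2 were higher (ZNF254 and ZNF100) and 7 did not pass the test. They held between 6 and 13 CG dinucleotides. The group was drawn from the sequences after the expression values were known, and no test was made on it.

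In cluster 6 the rises lay together. From ZNF420 to ZNF571 (chr19:37007857-37614097) 8 tested members in a row were higher in ΔDNMT3A, by log2 fold changes from 0.20 to 0.91. The paralogues ZNF585A and ZNF585B led. ZNF585B gave 5.49, 5.94, 6.63 and 6.35 CPM in the WT libraries, 11.4, 11.8, 11.01 and 11.99 in ΔDNMT3A, 13.1, 14.4 and 13.6 in DNMT3A1, and 10.8, 10.6, 10.8 and 9.85 in the libraries labelled DNMT3A2. WT was the lowest group without overlap (log2 fold change of ΔDNMT3A 0.91, SE 0.07, adjusted p = 1.19e-10). ZNF585A gave the same log2 fold change of 0.91 (SE 0.12). Of the exonic 75-base stretches, 9.84% of those of ZNF585A and 12.7% of those of ZNF585B recur elsewhere on chromosome 19. Reads that map to several places were not counted, and whether the copies lie in the paralogue was not tested. Whether the pair can be counted as independent was not tested either. ZNF420, next to ZNF585A, rose by 0.55 (SE 0.07), and DNMT3A1 stood above ΔDNMT3A again (log2 fold change 0.42, SE 0.06).

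Cluster 8 had a median log2 fold change of 0.22 over its tested members, beside 0.21 in cluster 6. From ZNF83 to ZNF816 (chr19:52594060-52962911) 8 tested members in a row were higher in ΔDNMT3A, with a median log2 fold change of 0.27. ZNF816 averaged 14.7 CPM ± 0.621 in the WT libraries, 20.3 ± 1.18 in ΔDNMT3A, 21.1 ± 1.24 in DNMT3A1 and 29.5 ± 0.486 in the libraries labelled DNMT3A2. ZNF613 rose from 3.80 CPM ± 0.224 to 5.25 ± 0.405 in ΔDNMT3A, and stood at 8.33 ± 0.783 in DNMT3A1 and 6.15 ± 0.972 in the libraries labelled DNMT3A2. ZNF347, in the same cluster, fell by 0.30 on the log2 scale (SE 0.07, adjusted p = 0.00031). Of the genes outside these clusters, ZNF844 in cluster 3 fell by 0.68 (SE 0.05), ZNF442 in cluster 3 by 0.58 and ZNF71 in cluster 9 by 0.73 (SE 0.10), while ZNF222 in cluster 7 rose by 0.51.

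The largest rise of the set was ZNF772 in cluster 9, a KRAB zinc finger gene. Its levels were 3.67, 3.88, 3.41 and 4.06 CPM in the WT libraries, 17.3, 15.9, 18.1 and 17.3 in ΔDNMT3A, 21.7, 22.5 and 24.5 in DNMT3A1, and 19.2, 16.8, 16.9 and 18.1 in the libraries labelled DNMT3A2. Every edited library was above every WT library. The log2 fold change against WT was 2.17 (SE 0.07, adjusted p = 1.08e-17) in ΔDNMT3A, 2.602 (SE 0.08) in DNMT3A1 and 2.22 (SE 0.07) in the libraries labelled DNMT3A2, so neither line that had received an isoform stood nearer to WT. Its 250 upstream bases (minus strand, chr19:57477567-57477816) hold 14 CG dinucleotides, in capitals:
ZNF772: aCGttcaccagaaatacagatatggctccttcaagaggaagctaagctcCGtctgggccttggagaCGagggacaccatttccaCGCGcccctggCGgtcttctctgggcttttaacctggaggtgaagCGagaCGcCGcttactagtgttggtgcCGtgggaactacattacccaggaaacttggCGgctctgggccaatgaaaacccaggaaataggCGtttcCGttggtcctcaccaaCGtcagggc

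The next comparisons set each line that had received an isoform against its parent line ΔDNMT3A. In DNMT3A1, 83 of 201 members tested were higher and 19 lower than in ΔDNMT3A, with a median log2 fold change of 0.14, beside 30.4% higher and 30.3% lower over 16860 genes. In the libraries labelled DNMT3A2, 102 of 201 were higher and 18 lower, with a median of 0.16, beside 33.8% higher and 34.1% lower over 16431 genes. Both comparisons share the ΔDNMT3A libraries. With a smooth trend of the counts on GC content removed, the counts were 71 higher and 23 lower in DNMT3A1 and 88 higher and 26 lower in the libraries labelled DNMT3A2. The members' transcripts had a median GC content of 43.8%, against 49.4% for all protein-coding genes.

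Cluster 4 had 15 higher and 1 lower of 22 tested in DNMT3A1, and cluster 6 had 14 higher and 0 lower of 20. Over all genes tested 30.4% were higher and 30.3% lower. Cluster 8 had 15 and 4 of 33, cluster 9 had 13 and 2 of 49 and cluster 3 had 8 and 2 of 23. Cluster 7 had 5 and 2 of 22, cluster 2 had 5 and 2 of 13 and cluster 1 had 2 and 2 of 5. Cluster 5 had 3 and 0 of 5, and the scattered members had 3 and 4 of 9. In the libraries labelled DNMT3A2, cluster 3 had 16 higher and 1 lower of 23, cluster 4 had 12 higher and 0 lower of 22 and cluster 7 had 12 higher and 0 lower of 22. Over all genes tested there 33.8% were higher and 34.1% lower. Cluster 9 had 21 and 5 of 49, cluster 8 had 17 and 6 of 33 and cluster 6 had 10 and 3 of 20. Cluster 2 had 8 and 0 of 13, cluster 5 had 2 and 0 of 5 and cluster 1 had 0 and 0 of 5. The scattered members had 4 and 3 of 9. By a log2 fold change of 1 or more, 1 member rose (ZNF345) and 3 fell (ZNF528, ZNF470 and ZNF296) in DNMT3A1, while in the libraries labelled DNMT3A2 3 rose (ZNF91, ZNF253 and ZNF844) and 7 fell (ZNF583, ZNF470, ZNF790, ZNF345, ZNF528, ZNF837 and ZNF546). ZNF233 in cluster 7 rose in both, from 3.07 CPM ± 0.238 in ΔDNMT3A to 6.07 ± 0.139 (SD, n = 3) in DNMT3A1 (log2 fold change 0.97, SE 0.10, adjusted p = 7.61e-08) and 5.38 ± 0.391 in the libraries labelled DNMT3A2 (0.79, SE 0.10, adjusted p = 2.38e-07). ZNF763 in cluster 3 rose by 0.98 in DNMT3A1 (adjusted p = 6.94e-05), although 48.2% of its exon length lies under other genes of the same strand, where reads of both were left uncounted. ZNF556, ZNF526 and ZNF473 fell in DNMT3A1, by 0.46, 0.42 and 0.33 on the log2 scale.

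Against WT, 92 of 203 members tested were higher and 34 lower in DNMT3A1 (median log2 fold change 0.15, beside 32.6% and 32.7% over 17029 genes), and 109 of 200 were higher and 23 lower in the libraries labelled DNMT3A2 (median 0.17, beside 34.3% and 34.4% over 16360 genes). These comparisons share the WT libraries with each other and with the first comparison. In cluster 8, 21 tested members in a row from ZNF577 to ZNF816 (chr19:51871302-52962911) were higher in the libraries labelled DNMT3A2 than in WT, by 0.15 to 0.99 on the log2 scale. In cluster 6, 12 in a row from ZNF382 to ZNF527 (chr19:36604817-37393066) were higher in DNMT3A1 than in WT.

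Summed over all 249 members, the level was 2982 CPM ± 31.3 in the WT libraries, 3100 ± 60.6 in ΔDNMT3A, 3289 ± 25.5 in DNMT3A1 (n = 3) and 3558 ± 21.3 in the libraries labelled DNMT3A2 (SD, n = 4 otherwise). The lowest library labelled DNMT3A2 was above the highest library of each other group. Cluster 4 ran differently, with 315 CPM ± 3.84 in the WT libraries, 275 ± 10.1 in ΔDNMT3A, 315 ± 9.03 in DNMT3A1 and 329 ± 5.08 in the libraries labelled DNMT3A2. Cluster 6 went from 344 ± 7.85 in WT to 386 ± 5.90, 431 ± 2.82 and 510.0 ± 3.60, and ZNF146 alone went from 149 ± 7.15 to 175 ± 4.12, 171 ± 0.658 and 264 ± 3.77 CPM. Cluster 8 went from 620 ± 11.7 to 714 ± 19.6, 750 ± 9.95 and 768 ± 6.82. Of the 199 members tested in every comparison, 93 had their highest group mean in the libraries labelled DNMT3A2 and 87 their lowest in WT. The highest group mean was a median of 1.34 times the lowest, and 21 members reached 2 times. These values were taken over the members only, so whether genes in general did the same was not tested.

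Against the small shifts of most members, a few fell to 0 or a few counts in 1 line. ZNF583 in cluster 9 had 9, 12, 5 and 9 counts in WT, 39, 16, 22 and 17 in ΔDNMT3A, 24, 24 and 34 in DNMT3A1, and 0 in all 4 libraries labelled DNMT3A2. With 3 counts over the group put in place of 0, the pooled level was 24.9-fold higher in ΔDNMT3A and 9.93-fold higher in WT. These ratios leave out the counting error and are not lower limits. The gene was named by a rule that asks for such counts, so a large difference came with the choice. Its rise from WT to ΔDNMT3A (log2 fold change 1.34, SE 0.31, adjusted p = 0.000684) was at levels under 1 CPM.

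ZNF470, further along the same cluster, had 56, 54, 55 and 76 counts in WT, 59, 36, 35 and 44 in ΔDNMT3A, 23, 11 and 23 in DNMT3A1, and 0, 0, 3 and 2 in the libraries labelled DNMT3A2. The groups did not overlap from one to the next apart from WT and ΔDNMT3A in counts, and in CPM these did not overlap either. Over pooled counts it was 27.6-fold higher in ΔDNMT3A than in the libraries labelled DNMT3A2 (95% exact interval 11.6 to 86.2, counting error only). In DNMT3A1 the log2 fold change was -1.05 against ΔDNMT3A (SE 0.24, adjusted p = 0.000808). Between ZNF583 and ZNF470 lie ZNF667 and ZNF471, which were silent, and ZNF71 just beyond stood at 3.99 CPM ± 0.489 in the libraries labelled DNMT3A2. Over the 250 bases before the start, members ranged from 1 CG dinucleotide (ZNF404) to 39 (ZNF541). Those of ZNF470 (plus strand, chr19:56567218-56567467) hold 15 CG dinucleotides, in capitals:
ZNF470: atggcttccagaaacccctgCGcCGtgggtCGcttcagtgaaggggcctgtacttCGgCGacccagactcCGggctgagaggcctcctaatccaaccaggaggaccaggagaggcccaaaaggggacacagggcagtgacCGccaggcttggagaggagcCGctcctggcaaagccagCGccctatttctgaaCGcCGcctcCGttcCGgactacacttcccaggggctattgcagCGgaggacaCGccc

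ZNF790 and ZNF345 in cluster 6 were both lowered in the libraries labelled DNMT3A2. ZNF790 had 30, 23, 24 and 27 counts in WT, 58, 45, 44 and 41 in ΔDNMT3A, 79, 62 and 86 in DNMT3A1, and 4, 1, 4 and 1 in the libraries labelled DNMT3A2. ZNF345 had 28, 17, 17 and 16 counts in WT, 33, 18, 18 and 25 in ΔDNMT3A, 36, 31 and 72 in DNMT3A1, and 0, 1, 3 and 5 in the libraries labelled DNMT3A2. For both, the libraries labelled DNMT3A2 were below and DNMT3A1 above every other library in CPM. Over pooled counts, ΔDNMT3A was 14.9-fold (95% exact interval 7.94 to 31.6) and 8.29-fold (4.19 to 18.7) above the libraries labelled DNMT3A2. DNMT3A1 was above ΔDNMT3A by log2 fold changes of 0.83 (SE 0.15, adjusted p = 9.56e-05) and 1.10 (SE 0.25, adjusted p = 0.000667).

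These 2 genes start back to back. The first starts that RefSeq lists for them lie on opposite strands with 83 bases between them (chr19:36850793-36850875, printed on the plus strand, CG in capitals), so that ZNF790 is read to the left and ZNF345 to the right of this stretch:
ZNF790-ZNF345: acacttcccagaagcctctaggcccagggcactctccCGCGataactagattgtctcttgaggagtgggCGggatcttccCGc
In the annotation used for counting the ends of the pair overlap on opposite strands, and counting used the strand. With the same reading, 7 pairs of members start back to back within 1000 bases. Of these, ZNF829 and ZNF568, with 40 bases between them, and ZNF569 and ZNF570, with 327, were silent in all 4 lines. ZNF490 and ZNF791 gave log2 fold changes of 0.22 and 0.21 in the libraries labelled DNMT3A2 against ΔDNMT3A, and ZNF461 and ZNF567 gave 0.39 and 0.18. In ZNF565 and ZNF146, with 21 bases between the starts, ZNF565 fell by 0.52 in ΔDNMT3A (SE 0.10) while ZNF146 rose by 0.22 (SE 0.03). In the pair ZNF529 and ZNF382 the latter was too low to be tested in ΔDNMT3A against WT.

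A further member was lowest in DNMT3A1 and lowered in both isoform lines. ZNF528 in cluster 8, named here after its values were seen, had 17, 8, 13 and 24 counts in WT, 34, 20, 19 and 26 in ΔDNMT3A, 1, 0 and 1 in DNMT3A1, and 3, 5, 7 and 3 in the libraries labelled DNMT3A2. Over pooled counts, ΔDNMT3A was 33.2-fold above DNMT3A1 (95% exact interval 8.95 to 278) and 4.37-fold above the libraries labelled DNMT3A2 (2.62 to 7.67). Lower by smaller amounts in the libraries labelled DNMT3A2 than in every other group were ZNF175, at 4.24 CPM ± 0.204 against 8.16 ± 0.870 in ΔDNMT3A (log2 fold change -0.95, SE 0.09, adjusted p = 2.67e-09), and ZNF552, at 21.6 ± 0.804 against 29.4 ± 2.33 (log2 fold change -0.45, adjusted p = 1.89e-07). ZNF837 stood at 0.825 ± 0.123 CPM there and 2.04 ± 0.250 in ΔDNMT3A, a fall of 1.29 on the log2 scale (adjusted p = 6.94e-07).

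Set against each other, DNMT3A1 was higher than the libraries labelled DNMT3A2 for 38 and lower for 61 of 202 members tested, with a median log2 fold change of -0.04, beside 34.5% higher and 33.9% lower over 16637 genes. The 6 members that differed by a log2 fold change of 1 or more were all higher in DNMT3A1, namely ZNF583, ZNF790, ZNF345, ZNF470, ZNF175 and ZNF837. ZNF528, with 2 counts over the DNMT3A1 libraries and 18 over those labelled DNMT3A2, was too low to be tested in this comparison. Among those lower in DNMT3A1 were ZNF442 (log2 fold change -0.97), ZNF253 (-0.93) and ZNF91 (-0.86, SE 0.06, adjusted p = 4.65e-13).

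Other genes were set beside the members to place these counts. Of the 266 ZNF genes on other chromosomes, 224 were tested in ΔDNMT3A against WT. Of these, 36 (16.1%) were higher and 106 (47.3%) lower (median log2 fold change -0.12). The members had 27.4% higher and 21.9% lower there, and all genes tested 31.2% and 31%. Against ΔDNMT3A, 84 of 224 were higher and 42 lower in DNMT3A1 (median 0.10), beside 30.4% and 30.3% over all genes. In the libraries labelled DNMT3A2, 112 of 224 were higher and 33 lower (median 0.16), beside 33.8% and 34.1%. The protein-coding neighbours inside the cluster spans had medians of -0.03, -0.10 and 0.02 in these 3 comparisons. The other protein-coding genes on chromosome 19 had 168 higher and 288 lower of 749 tested in DNMT3A1 against ΔDNMT3A (22.4% and 38.45%, median -0.08). With the GC trend removed, their medians turned from -0.03 to 0.03 in ΔDNMT3A against WT and from -0.01 to 0.07 in the libraries labelled DNMT3A2 against ΔDNMT3A, and against WT from -0.09 to 0.01 in DNMT3A1 and from -0.05 to 0.10 in the libraries labelled DNMT3A2. The members' medians were 0.02, 0.12, 0.12, 0.14 and 0.14 under that setting in the comparisons with WT or ΔDNMT3A, and that of DNMT3A1 against the libraries labelled DNMT3A2 was -0.02.

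Within the set, members with a KRAB-like stretch had 46 higher and 31 lower of 152 tested in ΔDNMT3A against WT, and those without had 9 higher and 13 lower of 49. As shares these were 30.3% higher and 20.4% lower with the stretch and 18.4% and 26.5% without, beside the 31.2% and 31% of all genes tested. Members with more than 14 CG dinucleotides in the promoter window had 39 higher and 26 lower of 134, and those with 14 or fewer had 9 higher and 14 lower of 44 (29.1% and 19.4% against 20.5% and 31.8%). In the libraries labelled DNMT3A2 against ΔDNMT3A the counts were 69 higher and 13 lower for the former and 23 higher and 3 lower for the latter, beside 33.8% higher and 34.1% lower over all genes tested there. Cluster 4 had a median of 10 CG dinucleotides in these windows, so much of it falls among the members with 14 or fewer. It had 2 higher and 10 lower of 22 tested in ΔDNMT3A against WT, so the CG split is not separate from the clusters. All of these are counts, and the differences between the subsets were not tested.

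The partners of KRAB zinc finger proteins were read as well. The 25 genes covered the corepressor TRIM28, SETDB1, the HUSH complex, heterochromatin proteins, DNA methyltransferases and related enzymes. Of these, 7 were higher and 13 lower in ΔDNMT3A than in WT, beside 31.2% and 31% over all 16654 genes tested. TRIM28, the corepressor itself, stood at 403 CPM in WT and 430 in ΔDNMT3A (log2 fold change 0.08, SE 0.03, adjusted p = 0.0169). SETDB1, which TRIM28 brings to its targets, fell by 0.19 (SE 0.03), the HUSH subunit TASOR by 0.64 (SE 0.03), the remodeller CHD3 by 0.93 (SE 0.04) and ATRX by 0.47 (SE 0.03). The other de novo methyltransferase DNMT3B fell by 0.48 (SE 0.03). The HUSH subunits MPHOSPH8 and PPHLN1 rose, by 0.12 (SE 0.04) and 0.22 (SE 0.03). In DNMT3A1 against ΔDNMT3A, 10 of the 25 were higher and 11 lower, beside 30.4% and 30.3% over all genes tested. In the libraries labelled DNMT3A2, 17 were higher and 3 lower, beside 33.8% and 34.1%. SETDB1 stood at 0.38 and 0.41 and CHD3 at 0.82 and 0.96 on the log2 scale in these 2 comparisons. Others fell in DNMT3A1, among them TRIM28 by 0.31 (SE 0.03), MPHOSPH8 by 0.50 (SE 0.05) and SUV39H2 by 0.65 (SE 0.04). In the libraries labelled DNMT3A2 these 3 stood at 0.05, 0.04 and 0.01. TASOR stood at 0.15 and 0.09 in the 2 comparisons. The part of the 25 genes in the changes of the members was not tested. ZNF274, a member that is known to bind the 3′ ends of other zinc finger genes and was picked for that role, stood at 19.7 CPM ± 0.754 in WT and 20.5 ± 0.525 in ΔDNMT3A (log2 fold change 0.05, SE 0.05, adjusted p = 0.43).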

How the data were processed

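Stranded total RNA libraries from Caco-2 cells were sequenced as read pairs of 75 bases. Per the authors' methods and the file headers, reads were trimmed with Trim Galore, aligned with STAR to GRCh38 and counted per gene with featureCounts 1.5.2 on the reverse strand, with default handling, which leaves out reads that map to several places or overlap several genes. The header names an Ensembl annotation and the methods name GENCODE. The deposited values are raw fragment counts per gene, 1 file per library. Mouse libraries of the series were not used here.

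Symbols and gene types came from GENCODE and RefSeq tables (98.1% of 58051 IDs had a symbol). Fingers and KRAB-like stretches were read from the longest open reading frame of GENCODE transcripts, because no protein table was used here. Promoters were RefSeq windows, and a gene with several took the first. Each comparison was fitted in edgeR 4.0.16 (R 4.3.3) with the libraries of both groups, filterByExpr, TMM and the quasi-likelihood test, and p-values were adjusted by Benjamini-Hochberg over all genes tested. CPM and RPKM used TMM library sizes over all 15 libraries. Fold changes are log2 with standard errors. Pooled count ratios have exact intervals at 95%, and a group at 0 was set to 3 counts. On simulated counts with 196 of 16420 genes changed by a log2 fold change of 1, 95.4% were recovered in ΔDNMT3A against WT, with 6.97% false calls. In DNMT3A1 against the libraries labelled DNMT3A2, 91.4% were recovered, with 5.76% false calls. In the data far more genes were called and most member changes were smaller, so these rates do not carry over to the members. No pair of libraries agreed within sampling noise (chi-square per degree of freedom 1.83 to 5.10).

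Genes were named by rule. These were members past the threshold, without overlap between groups and with a mean of at least 1 CPM (the 8 highest and 8 lowest in ΔDNMT3A against WT, 3 each way in the other comparisons and each cluster's extremes), the 3 highest in WT, and members with at most 3 counts in every library of a group and at least 20 in every library of another. DNMT3A and the cofactors were named too. Other names complete a stretch, pair or count of 7 or fewer, or were chosen after their values were seen. Alternatives were DESeq2 1.42.0, its size factors, other filters, a replicate block, length and GC trends, and leaving out each library. The members and lists were chosen with earlier results of these data known.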

Additional observations from a re-analysis of the deposited data

Results flagged for a closer look

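Over 159 sets of 4 libraries, 9 held 1 library far from the other 3, where chance gives about 1 in 20. In the libraries labelled DNMT3A2 these were ZNF556 in replicate 2 (20.15 CPM), ZNF146 in replicate 3 (270.0 CPM) and the sum of cluster 8 in replicate 4 (757.5 CPM). In ΔDNMT3A they were ZNF491 in replicate 2 (1.125 CPM), ZNF565 in replicate 1 (2.865 CPM), ZNF585A in replicate 3 (4.595 CPM), ZNF888 in replicate 4 (4.55 CPM) and the sum of cluster 3 in replicate 4 (217.1 CPM). In WT it was ZNF763 in replicate 3 (0.7971 CPM).

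Each isoform line was compared with ΔDNMT3A over 201 tested members, and 11 members moved in opposite directions in the 2 lines. For these, DNMT3A1 also differed from the libraries labelled DNMT3A2 in the edgeR test of that difference. Among them, ZNF790, ZNF345, ZNF175, ZNF552, ZNF121 and ZNF585A are also described above. The same count was not made over all genes tested, so whether 11 is many or few was not tested. DNMT3A1 was the higher for 6, by log2 differences of 4.65 for ZNF790, 4.07 for ZNF345, 1.225 for ZNF175, 0.68 for ZNF552, 0.51 for ZNF585A and 0.50 for ZNF160. It was the lower for 5, by -0.72 for ZNF441, -0.66 for ZNF331, -0.52 for ZNF121, -0.44 for ZNF428 and -0.42 for ZNF101. The cause was not tested.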

How the results depend on the processing

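Of 3074 values of 187 results for named genes, 2963 kept their direction and side of the threshold, 111, in 18 results, lost the call and 0 reversed. Medians near 0 did change sign. For DNMT3A1 against the libraries labelled DNMT3A2 those of clusters 4 and 8 went from -0.03 and -0.01 to 0.03 and 0.02 with the GC trend removed, and to 0.02 and 0.02 without labelled DNMT3A2 replicate 4. Counts of higher and lower members changed by more than 1.5 times only when a log2 fold change of 1 was also required. They were then 2 and 5 (ΔDNMT3A against WT), 1 and 3 (DNMT3A1 against ΔDNMT3A), 3 and 7 (libraries labelled DNMT3A2 against ΔDNMT3A), 9 and 4 (DNMT3A1 against WT), 1 and 6 (labelled DNMT3A2 against WT) and 6 and 0 (DNMT3A1 against labelled DNMT3A2). Same-numbered libraries did not pair (r from -0.094 to 0.084). With the replicate block the counts were 57 and 45, 74 and 20, 102 and 17, 91 and 34, 108 and 23, and 36 and 54, in that order.

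Median log2 fold changes shifted more. For DNMT3A1 against ΔDNMT3A the median was 0.1111 with no filter, 0.1281 with the replicate block, 0.1222 with block and length trend, 0.1185 with the GC trend removed and 0.1072 with block and GC trend. For labelled DNMT3A2 it was 0.141 with no filter, 0.119 with the GC trend removed and 0.1156 with block and GC trend against ΔDNMT3A, and 0.1507, 0.1423 and 0.1426 against WT. For DNMT3A1 against labelled DNMT3A2 it was -0.02676 at a mean of at least 1 CPM, -0.02188 with the GC trend removed and -0.007577 with block and GC trend. The GC settings were added after the data were seen, and the cause of the shifts was not tested.

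Leaving out each library in turn, members higher and lower ranged from 49 to 56 and 38 to 45, 70 to 85 and 17 to 20, 93 to 107 and 16 to 22, 83 to 91 and 29 to 36, 102 to 108 and 20 to 25, and 34 to 37 and 49 to 62, in the order above. The medians ranged from 0.003021 to 0.03234, 0.1237 to 0.1499, 0.1517 to 0.1897, 0.1255 to 0.1596, 0.1691 to 0.201, and -0.05237 to -0.03992. The ZNF93 and ZNF585A calls in DNMT3A1 against ΔDNMT3A were each lost in 5 of 7 such fits, and the ZNF837 call in ΔDNMT3A against WT in 6 of 8. Without ΔDNMT3A replicate 4, ZNF100 against WT missed the threshold (adjusted p = 0.0594), and without that library or WT replicate 2 cluster 4 had 1 member higher in ΔDNMT3A in place of 2. The 1 member lower in cluster 4 in DNMT3A1 against ΔDNMT3A was lost without ΔDNMT3A replicate 2 or 4 or DNMT3A1 replicate 1 or 2. Low counts limit ZNF583, ZNF470, ZNF790, ZNF345 and ZNF528.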
